A study of Macaca mulatta with 20 samples.

Results

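Helper T cells and B cells sorted from the blood of the same rhesus macaques were compared over every probe of a human Illumina expression array. The helper T cell arrays carry CD4 in their names and the B cell arrays CD20, and each helper array was paired with the B cell array from its own animal. Of the 20 arrays of the series, 8 were used, namely the helper T cell and B cell arrays of the 4 animals of dominance rank 1, 2, 3 and 5, where 1 is high and 5 is low. All were adult females, the cells came from peripheral blood mononuclear cells, and the labels name no treatment. Each rank was held by 1 animal and the animals lived in different social groups, so effects of rank, of the animal and of its social group cannot be told apart. The pair of the rank 4 animal was left out because of the measured values of its B cell array, which are given below, and counts with that pair stand beside those without it. All 7303 probes were tested, and 6055 of them carry a single gene symbol and stand for 5236 genes. Where a gene has several probes, the one with the highest mean over the 8 arrays stands for it. Levels are on the log2 scale of the authors' normalized values, so a difference of 1 is a fold of 2. Differences were taken within a probe. Levels of different probes were used together only to rank brightness and to average lists.

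T and B lymphocytes recognise antigen through related but separate receptor complexes. In T cells the receptor signals through the CD3 chains, the kinase ZAP70 and the adaptor LAT, and helper T cells read peptides that other cells present on MHC class II. B cells signal through immunoglobulin with CD79A and CD79B, take up the antigen they bind, present it on MHC class II and receive help through CD40. The lineages are held apart by transcription factors such as BCL11B in T cells and EBF1 in B cells.

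The markers CD79B and CD3D separated the 8 arrays by label. Both were given with the comparison, and the rank 4 pair was left out for lacking such transcripts. The separation is therefore no independent test of the labels. Transcripts typical of other types, such as CD8A in the helper arrays, were also present and are given below. CD79B, the signalling chain of the B cell receptor, stood at 13.15, 13.49, 13.85 and 13.90 in B cells, in the order of ranks 1, 2, 3 and 5, which is kept throughout. In the helper arrays of the same animals it stood at 8.11, 8.04, 8.34 and 8.15, close to its mean of 8.07 in monocytes. CD3D, which carries the signal of the T cell receptor, stood at 13.31, 13.11, 13.57 and 13.51 in the helper arrays. In the B cell arrays CD3D stood at 10.05, 9.59, 10.59 and 11.30, below every helper array but above the 4 monocyte arrays of the same animals, which lay between 7.61 and 7.69. CD4, whose protein names the helper arrays, stood at 8.38, 8.34, 8.59 and 8.85 in them and at 7.71, 7.66, 7.59 and 7.79 in B cells. MS4A1, which encodes CD20, was not analysed here. Over all probes the correlation between arrays was 0.930 to 0.982 among helper arrays, 0.925 to 0.977 among B cell arrays and 0.836 to 0.902 between the types. The B cell array of the rank 4 animal stood apart, with correlations of 0.172 to 0.184 with the other B cell arrays. It had CD79B at 8.36, CD74 at 7.80 and B2M, which every MHC class I molecule needs, at 8.44. The helper array of that animal correlated at 0.952 to 0.979 with the other helper arrays, with CD3D at 13.42.

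Differences between the types ran in nearly equal numbers in each direction. Of 7303 probes, 1865 (25.5%) passed limma's paired test at an adjusted p under 0.05. Of these, 996 (13.6% of all probes) were higher in helper T cells and 869 (11.9%) were higher in B cells. A difference of at least 1 log2 was seen at 175 probes higher in helper T cells and at 184 higher in B cells, and one of at least 2 log2 at 39 and 44 probes. The median size of a called difference was 0.50 and the smallest 0.17. All but 3 of the called probes had the same sign in 4 of 4 animals, that is 1862 of 1865. By gene, 1483 of 5236 (28.3%) passed, 797 (15.2%) higher in helper T cells and 686 (13.1%) higher in B cells. Of the called genes, 244 had several probes, and in 121 of these every other probe passed in the same direction. Probes of 1 gene were called in opposite directions for 0 genes. For 91.7% of all probes the 95% interval of the difference lay inside -1 to 1. When the rank 4 pair was added, 267 probes (3.66%) passed, 195 higher in helper T cells and 72 higher in B cells, and all 267 were among the 1865 with the same direction.

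**Figure D1:**
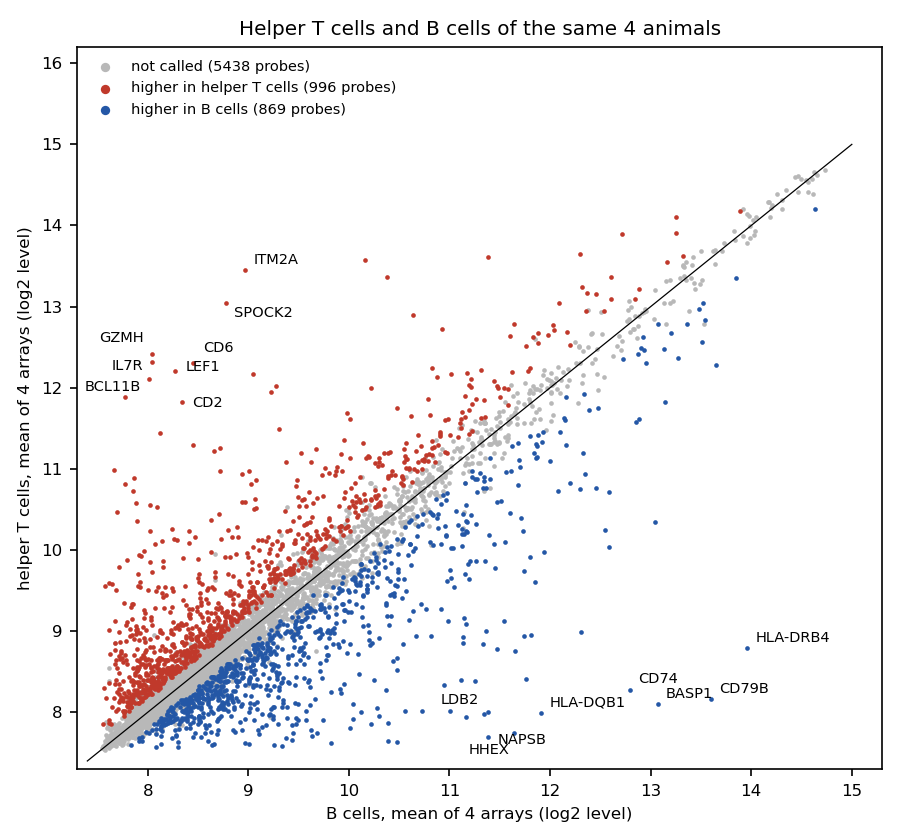
Each point is a probe, with its mean over 4 B cell arrays on the horizontal axis and over the 4 helper T cell arrays of the same animals on the vertical axis, both as log2 levels. Red marks the 996 probes higher in helper T cells, blue the 869 higher in B cells and grey those not called; the line marks equal levels, and named genes are the first 8 in each direction.

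The genes with the largest differences included receptors and transcription factors of both lineages. The first 20 genes higher in helper T cells ran from ITM2A, a membrane protein of T cell activation, at 4.48 ± 0.09 to SKAP1, an adaptor of T cell adhesion, at 2.53 ± 0.19. The first 20 higher in B cells ran from CD79B at -5.44 ± 0.12 to TOX2, an HMG-box transcription factor, at -2.70 ± 0.17. Every ± is the SE of limma's fit (n = 4 animals unless the rank 4 pair was added), with the variance drawn toward a value shared by all probes. These 40 genes were picked by size among called genes with the same sign in 4 of 4 animals, so agreement among the animals was a condition. In none of them did the helper and B cell arrays overlap. Of all genes, 10.2% did not overlap with helper T cells above and 9.76% with B cells above. All 40 passed when any 1 animal was left out and when the arrays were not paired. When the rank 4 pair was added, all 20 higher in helper T cells passed, and 5 of the 20 higher in B cells (BASP1, LDB2, EGR1, CXXC5 and CD86). The rank 4 B cell array was low in T and B cell transcripts alike, with CD3D at 7.90 and CD79B at 8.36. Such an array keeps helper differences and shrinks B cell ones, so this split does not show which calls are firmer. The sizes are chosen as the extremes of the array, so they describe the top of the list and not a typical gene.

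**Figure D2:**
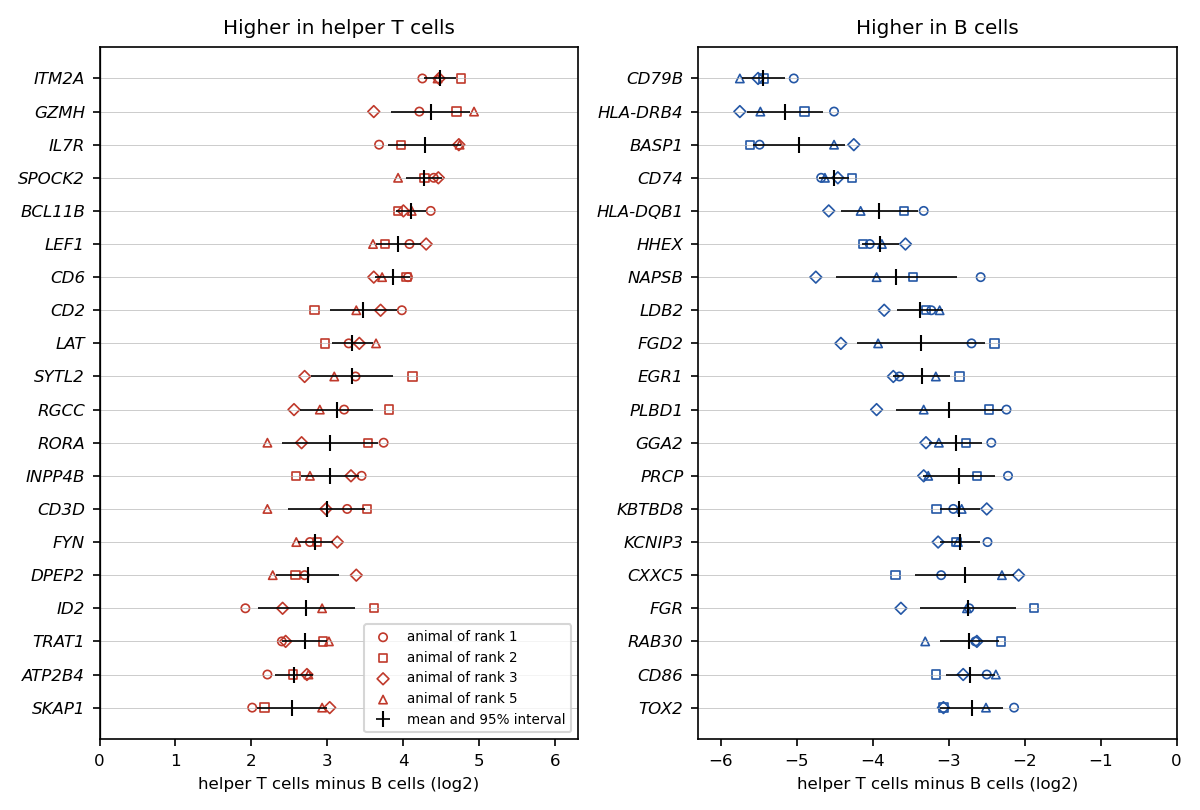
The difference helper T cells minus B cells (log2) is shown for the first 20 genes in each direction, with 1 symbol per animal, the mean as a vertical tick and its 95% interval as a bar. Genes were picked among those with the same sign in every animal, so all animals lie on 1 side of 0 by that choice. They run from ITM2A at 4.48 on the left panel to CD79B at -5.44 on the right.

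Genes of the T cell receptor complex were higher in helper T cells. The gene lists used from here on were written with earlier results of these data known, so their counts and medians are descriptions and not tests. Of 7 chains and co-receptors measured, 5 were called higher there and the other 2, CD8A and CD8B, were not called, with a median difference of 1.59 against -0.001 over all 5236 genes, of which 15.2% were called in that direction. CD3D led with a difference of 2.99 ± 0.21 (adjusted p = 0.000402), a fold of 7.96. TRAT1, which stabilises the receptor complex at the surface, stood at 10.32, 10.66, 10.34 and 10.98 in the helper arrays and at 7.93, 7.72, 7.89 and 7.96 in the B cell arrays. The ranges are well apart, at a difference of 2.70 ± 0.12 (adjusted p = 0.000109). CD3G, another CD3 chain, stood at 11.69, 10.18, 11.86 and 12.22 in helper T cells against 9.12, 8.23, 9.93 and 9.98 in B cells, and CD3E at 9.09, 9.04, 9.55 and 9.74 against 7.84, 7.77, 7.75 and 7.69. Their differences were 2.17 ± 0.12 and 1.59 ± 0.15. CD3G in B cells, like CD3D, was above its monocyte mean of 7.89 in every animal, whereas CD3E, at 7.69 to 7.84, was near its monocyte mean of 7.77. Averaged over the 7 genes, the B cell arrays stood at 8.36 to 8.94, the monocyte arrays at 7.86 to 7.99 and the helper arrays at 10.01 to 10.65. The part of T cell transcripts in B cell arrays in these differences was not tested. In bulk samples of this kind, fewer cells of a type and less RNA per cell cannot be told apart. CD4 was called as well, at 0.85 ± 0.09, but the label already rests on its protein.

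The receptors on the T cell surface followed the same direction. Of 8 measured, all but CD28 were called higher in helper T cells, with a median of 1.58, against 15.2% of all genes. IL7R, the receptor for the survival cytokine IL-7, stood at 11.72, 12.03, 12.84 and 12.69 in helper T cells. In B cells it stood at 8.04, 8.06, 8.11 and 7.95, level with its monocyte mean of 8.04. The difference was 4.28 ± 0.20 (adjusted p = 0.00011), a fold of 19.4. CD6, a co-receptor that binds ALCAM, differed by 3.86 ± 0.09, and CD2, an adhesion and co-stimulatory receptor, by 3.47 ± 0.18. CD5, a negative regulator of receptor signalling, differed by 1.97 ± 0.13. Among the inhibitory receptors CTLA4 differed by 0.68 ± 0.06 and LAG3 by 0.56 ± 0.10, both from low levels. CD28, the main co-stimulatory receptor, was not called, at 0.22 ± 0.07 (adjusted p = 0.0591), with 8.11, 8.23, 8.13 and 8.04 in helper T cells and 7.92, 7.81, 7.98 and 7.91 in B cells.

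Downstream of the receptor, 5 of 9 signalling genes were higher in helper T cells and 2 were higher in B cells, with a median of 0.75. The shares of all genes called in these directions were 15.2% and 13.1%. LAT, the adaptor that gathers the signalling complex at the membrane, stood at 10.99, 10.61, 11.00 and 11.35 in helper T cells and at 7.71, 7.65, 7.58 and 7.71 in B cells. These ranges are more than 2 log2 apart, and the difference was 3.33 ± 0.11 (adjusted p = 4.22e-05). FYN, a Src-family kinase, differed by 2.84 ± 0.09, SKAP1 by 2.53 ± 0.19, and ZAP70, the kinase that docks on the CD3 chains, by 2.08 ± 0.06, with 1 of its 2 probes passing. LCP2, the adaptor SLP-76, differed by 0.75 ± 0.09. Against the direction of the list went DUSP22, a phosphatase that acts on LCK, at -0.50 ± 0.08, and PTPN22, a phosphatase that dampens receptor signalling, at -0.52 ± 0.12. The call of PTPN22 was lost without the animal of rank 2 (or of rank 5). INPP4B, a phosphoinositide phosphatase, and ATP2B4, a plasma membrane calcium pump, also stood among the first 20, at 3.03 ± 0.15 and 2.56 ± 0.10.

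Of 12 transcription factors of the T lineage, 8 were higher in helper T cells and 4 were not called, with a median of 0.78. The share of all genes called in that direction was 15.2%. BCL11B, which commits precursors to the T lineage, stood at 12.16, 12.35, 11.92 and 12 in helper T cells and at 7.81, 8.41, 7.92 and 7.90 in B cells. It differed by 4.10 ± 0.08 (adjusted p = 1.08e-05), a fold of 17.1, with close agreement among the animals. LEF1, the DNA-binding partner of beta-catenin, stood at 12.31, 11.94, 12.51 and 12.07 against 8.23, 8.19, 8.21 and 8.47, a difference of 3.93 ± 0.12. RORA, a nuclear receptor of several T cell subsets, was more uneven among animals, with 11.54, 11.37, 10.40 and 9.91 in helper T cells and 7.80, 7.84, 7.75 and 7.70 in B cells. Its difference was 3.03 ± 0.26. ID2, an inhibitor of E proteins, differed by 2.72 ± 0.26, and STAT4, which carries the interleukin-12 signal, by 2.02 ± 0.05. ETS1 was bright in both types and differed by 0.91 ± 0.13. EOMES, a T-box factor of cytotoxic and memory cells, differed by 0.64 ± 0.08. KLF2, which keeps lymphocytes in circulation, was not called, at -0.15 ± 0.12, with 13.95, 14.19, 13.61 and 13.76 in helper T cells and 13.92, 14.04, 14.13 and 14.04 in B cells.

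Genes of cytotoxic and natural killer effector function were also higher in the helper arrays than in B cells. Of 15 measured, 10 were called higher in helper T cells and 5 were not called, with a median of 0.81. Over all genes 15.2% were called in that direction. GZMH, a granzyme, had the second largest difference of all genes in this direction. It stood at 12.43, 12.75, 11.69 and 12.76 in helper T cells and at 8.22, 8.05, 8.08 and 7.83 in B cells, a difference of 4.36 ± 0.21 (adjusted p = 0.000139), with a mean of 14.19 in cytotoxic T cells. GNLY, a membrane-lytic granule protein, stood at 10.19, 9.68, 9.51 and 11.18 against 8.14, 8.38, 8.26 and 8.25, a difference of 1.88 ± 0.28. KLRD1, the CD94 receptor of natural killer cells, differed by 1.82 ± 0.12, GZMK by 1.47 ± 0.22 and NKG7 by 1.09 ± 0.16. PRF1, the pore-forming perforin, differed by 0.54 ± 0.10. The calls of GZMA (0.65 ± 0.17), CST7 (1.04 ± 0.22) and KLRF1 (0.63 ± 0.16) were each lost without the animal of rank 1 (or of rank 2), and that of GZMA also without rank 5. All of these genes were lower in the helper arrays than their means in cytotoxic T cells, and the mean over the 15 genes was 8.77 to 9.42 in helper arrays, 7.96 to 8.03 in B cell arrays and 10.12 to 10.82 in the cytotoxic T cell arrays of the same animals. In the helper array of the rank 4 animal, which was left out, that mean was lower, at 8.34. NCAM1, the CD56 marker, differed by -0.01 ± 0.05 between helper T and B cells.

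CD8A, the alpha chain of the cytotoxic co-receptor, did not follow the labels evenly. It stood at 10.62, 10.72, 9.50 and 11.29 in the helper arrays and at 8.20, 9.64, 10.97 and 8.71 in the B cell arrays, so the groups overlapped and in the rank 3 animal the B cell array was the higher. The difference was 1.15 ± 0.67 (adjusted p = 0.283), and its SD over animals, 1.87, was the largest of all genes. In the rank 4 helper array CD8A stood at 8.31, and in the cytotoxic T cell arrays at 13.84 to 14.36. CD8B, the beta chain, was at 7.93, 8.01, 7.79 and 7.94 in helper T cells and at 7.89, 7.89, 7.87 and 7.95 in B cells, against a cytotoxic mean of 9.25. The part of CD8A and of the cytotoxic genes in the other differences between helper T and B cells was not tested.

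**Figure D3:**
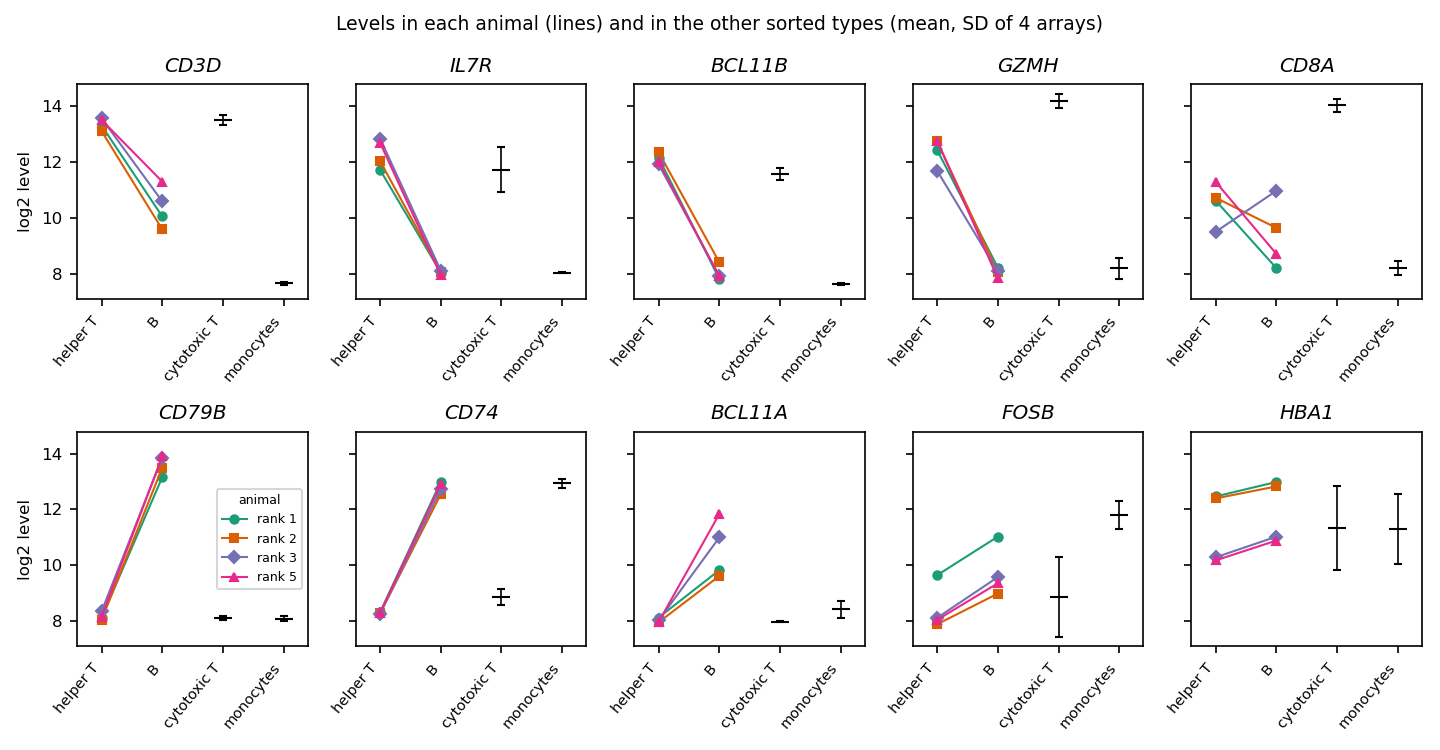
Log2 levels of 10 genes are joined by a line for each animal from its helper T cell array to its B cell array, with the mean and SD of the 4 cytotoxic T cell and 4 monocyte arrays of the same animals in black. CD3D, IL7R, BCL11B and GZMH fall and CD79B, CD74 and BCL11A rise along every line, while the lines of CD8A cross; FOSB and HBA1 rise within every animal although the animals' levels overlap between types.

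Genes of the B cell receptor and its co-receptors were higher in B cells. Of 9 measured, 7 were called in that direction and the other 2, CR2 and CD81, were not called, with a median of -0.83, against 13.1% of all genes called higher in B cells. CD79B, at -5.44 ± 0.12 (adjusted p = 1.25e-05), had the largest difference of any gene, a fold of 43.3. Its low level in the rank 4 B cell array was among the reasons to leave that pair out, so limma's p does not stand apart from that choice. With the pair the adjusted p was 0.0651. CD40, the receptor for T cell help, stood at 9.75, 9.93, 9.19 and 9.66 in B cells and at 7.68, 7.68, 7.75 and 7.71 in helper T cells, a difference of -1.93 ± 0.13. CD37, a tetraspanin of mature B cells, was clearly present in both, at 12.18, 12.15, 12.67 and 13.34 against 10.66, 10.73, 10.51 and 10.97, a difference of -1.87 ± 0.17. LY86, the partner of the Toll-like receptor homologue CD180, differed by -1.54 ± 0.23. FCGR2B, the inhibitory Fc receptor, differed by -0.62 ± 0.09. CD72 (-0.83 ± 0.18) and FCRLA (-0.72 ± 0.20) were called over the 4 animals, but CD72 not without the animal of rank 1 (or of rank 3) and FCRLA not without rank 2 (or rank 3). CR2, the complement receptor of B cells, was not called, at 0.20 ± 0.12, with 8.24, 8.20, 9.08 and 8.74 in helper T cells and 8.09, 8.08, 8.45 and 8.82 in B cells. CD81, a tetraspanin of the B cell co-receptor, was bright in every array, at 13.20 to 13.51 and 13.16 to 13.89, with a difference of -0.18 ± 0.10.

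All 4 signalling genes measured below the B cell receptor were higher in B cells, with a median of -0.89, against 13.1% of all genes. PTPN6, the inhibitory phosphatase SHP-1, stood at 10.65, 10.77, 11.98 and 11.97 in B cells and at 9.73, 9.24, 10.05 and 10.43 in helper T cells, a difference of -1.48 ± 0.16. INPP5D, the inositol phosphatase SHIP1, differed by -1.02 ± 0.17, BANK1, a scaffold of B cell signalling, by -0.77 ± 0.12, and PRKCB, a protein kinase C isoform, by -0.68 ± 0.14. FGR, a Src-family kinase, differed by -2.75 ± 0.26, and 1 of its 2 probes passed. CSK, the kinase that restrains the Src family, was chosen as an example after its values were seen. It stood at 11.45, 11.07, 13.25 and 13.44 in B cells and at 10.20, 9.49, 11.64 and 11.69 in helper T cells. The types overlapped because the animals of ranks 3 and 5 were high in both, yet within each animal helper minus B lay between -1.75 and -1.26, and the paired difference was -1.55 ± 0.09 (adjusted p = 0.00021).

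The genes of MHC class II presentation had the largest median of the 31 lists. All 7 measured were higher in B cells, with a median of -2.55, where 13.1% of all genes were called. The probe named HLA-DRB4 stood at 13.24, 13.79, 14.38 and 14.41 in B cells and at 8.73, 8.89, 8.63 and 8.93 in helper T cells, a difference of -5.16 ± 0.20 (adjusted p = 6.95e-05), and the probe named HLA-DQB1 differed by -3.92 ± 0.21. These names come from the human design, and the macaque class II gene behind each probe is not resolved. CD74, the invariant chain that guides class II molecules, stood at 12.99, 12.54, 12.72 and 12.91 in B cells and at 8.31, 8.27, 8.26 and 8.28 in helper T cells. The groups were more than 4 log2 apart, at -4.51 ± 0.08 (adjusted p = 1.08e-05), and the mean of CD74 in monocytes was 12.93. CD74 was also low in the rank 4 B cell array, whose pair was left out for such values, and with that pair its adjusted p was 0.0794. CTSH, a lysosomal protease, differed by -2.55 ± 0.13, MARCHF1, the ligase that removes class II from the surface, by -1.04 ± 0.11, and CIITA, the class II transactivator, by -0.78 ± 0.13. HLA-DOB, which modulates peptide loading, was the only member of the 7 whose groups overlapped. It stood at 7.89, 7.90, 9.55 and 10.41 in helper T cells and at 9.92, 10.80, 11.10 and 11.46 in B cells, and B cells were higher in each animal (-1.88 ± 0.28, adjusted p = 0.0059). CD86, a ligand for CD28 on presenting cells, was among the first 20 at -2.72 ± 0.13.

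Of 12 transcription factors listed for the B lineage, 9 were higher in B cells and 3 were not called, with a median of -0.91. Over all genes 13.1% were called higher in B cells. The list was written with earlier results of these data known and holds HHEX and TOX2 of the first 20 genes. Its count and median are therefore no test of the lineage. HHEX, a homeobox factor, stood at 11.78, 11.86, 11.28 and 11.65 in B cells and at 7.74, 7.74, 7.71 and 7.77 in helper T cells, a difference of -3.90 ± 0.10 (adjusted p = 1.86e-05). Its mean in monocytes was 10.72. TOX2 stood at 12.56, 13.32, 13.42 and 12.86 in B cells and was well above the low end of the array in helper T cells too, at 10.42, 10.25, 10.35 and 10.35. BCL11A, a zinc-finger factor of early B cell development, stood at 9.82, 9.61, 10.99 and 11.83 in B cells and at 8.12, 7.95, 8.02 and 7.96 in helper T cells. Its difference of -2.55 ± 0.38 was among the 8 most uneven over animals. TCF4, an E protein, differed by -1.77 ± 0.23, EBF1, which specifies the B lineage, by -1.75 ± 0.13, and MEF2C by -1.04 ± 0.13. The Rel factors differed less, RELB by -0.46 ± 0.10 and REL by -0.30 ± 0.06. The call of RELB was lost without the animal of rank 2, and that of REL without rank 1 (also without rank 2, or without rank 5). FOXP1, needed in early B cells, was not called and lay the other way, at 0.36 ± 0.11 (adjusted p = 0.0541). BACH2, a repressor shared by T and B cells, stood at 9.22, 9.41, 9.20 and 9.13 in helper T cells and at 9.45, 9.50, 9.20 and 10.32 in B cells (-0.38 ± 0.20, adjusted p = 0.245).

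Adding the rank 4 pair bore unevenly on these groups. Its B cell array was low in T and B cell transcripts alike, so the counts that follow do not show which group's calls are firmer. The calls held in 4 of 5 T cell receptor chain genes, 5 of 7 surface receptors, 4 of 7 signalling genes and 6 of 8 T lineage factors. None held of the 7 B cell receptor genes, the 7 class II genes and the 9 B lineage factors. CD79B then differed by -4.40 ± 0.89 (adjusted p = 0.0651) and CD74 by -3.59 ± 0.79 (adjusted p = 0.0794), while CD3D differed by 3.50 ± 0.47 (adjusted p = 0.0227).

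Several genes outside these lists stood among the first 20 in B cells. BASP1, a membrane-bound protein best known from neurons, stood at 13.60, 13.81, 12.31 and 12.56 in B cells and at 8.11, 8.19, 8.06 and 8.06 in helper T cells, a difference of -4.97 ± 0.25 (adjusted p = 0.00015). LDB2, a LIM-domain binding cofactor, stood at 11.19, 11.39, 11.88 and 11.06 against 7.96, 8.09, 8.03 and 7.93, and its monocyte mean was 8.18. Its difference was -3.38 ± 0.12. NAPSB (-3.69 ± 0.32) and FGD2 (-3.36 ± 0.35), an exchange factor for the GTPase CDC42, were less even over animals. NAPSB stood at 10.30, 11.09, 12.44 and 11.70 in B cells, and FGD2 at 10.59, 10.41, 12.46 and 11.90, both lower in the animals of ranks 1 and 2. In helper T cells both lay near the low end of the array, at 7.62 to 7.75 and 7.89 to 8.03. PLBD1 (-3.0 ± 0.28), PRCP (-2.86 ± 0.19), KBTBD8 (-2.86 ± 0.11), KCNIP3 (-2.85 ± 0.11) and CXXC5 (-2.79 ± 0.27) completed this set. PRCP, a lysosomal carboxypeptidase, and PLBD1 were brighter still in monocytes, with means of 13.52 and 13.81. Among the first 20 in helper T cells and outside the lists, SPOCK2, a secreted proteoglycan, stood at 13.19, 13.06, 13.03 and 12.92 against 8.78, 8.79, 8.57 and 8.99 in B cells (4.27 ± 0.10). SYTL2, a Rab27 effector of granule docking, differed by 3.32 ± 0.22, RGCC, a cell cycle regulator, by 3.12 ± 0.19 and DPEP2, a dipeptidase, by 2.74 ± 0.17. The brightest called genes were SRGN, the granule proteoglycan serglycin, at 0.85 ± 0.16 in helper T cells, and OAZ1, the ornithine decarboxylase antizyme, at -0.43 ± 0.06 in B cells. The call of SRGN was lost without the animal of rank 1 (or of rank 5).

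Endosomal and lysosomal genes, which serve antigen uptake and processing among other roles, were in part higher in B cells. Of 26 measured, 12 were higher in B cells and 1 in helper T cells, with a median of -0.25. Over all genes 13.1% and 15.2% were called in these directions. The largest differences were in trafficking genes, GGA2, a clathrin adaptor of the trans-Golgi, at -2.91 ± 0.14 and RAB30, a Golgi GTPase, at -2.73 ± 0.16. Both are among the first 20 genes, and the list was written with earlier results of these data known. RAB30 stood at 10.65, 10.30, 10.61 and 11.37 in B cells, at 8.0, 7.99, 7.98 and 8.06 in helper T cells and at a mean of 7.97 in monocytes. The lysosomal alpha-galactosidase GLA differed by -1.38 ± 0.18, and 3 subunits of the proton pump were called, ATP6V0A1 at -1.20 ± 0.07, ATP6V0B at -0.64 ± 0.07 and ATP6V0D1 at -0.58 ± 0.13. The calls of ATP6V0D1, CTSB (-0.44 ± 0.09) and RAB5C (-0.27 ± 0.06) were lost without the animal of rank 1 and without at least 1 other. The single gene in the other direction was CTSL, a lysosomal protease, at 10.40, 10.16, 10.28 and 9.46 in helper T cells and 8.30, 8.10, 7.97 and 7.93 in B cells (2.00 ± 0.13, adjusted p = 0.000297). Its mean was 8.49 in cytotoxic T cells and 12.45 in monocytes.

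**Figure D4:**
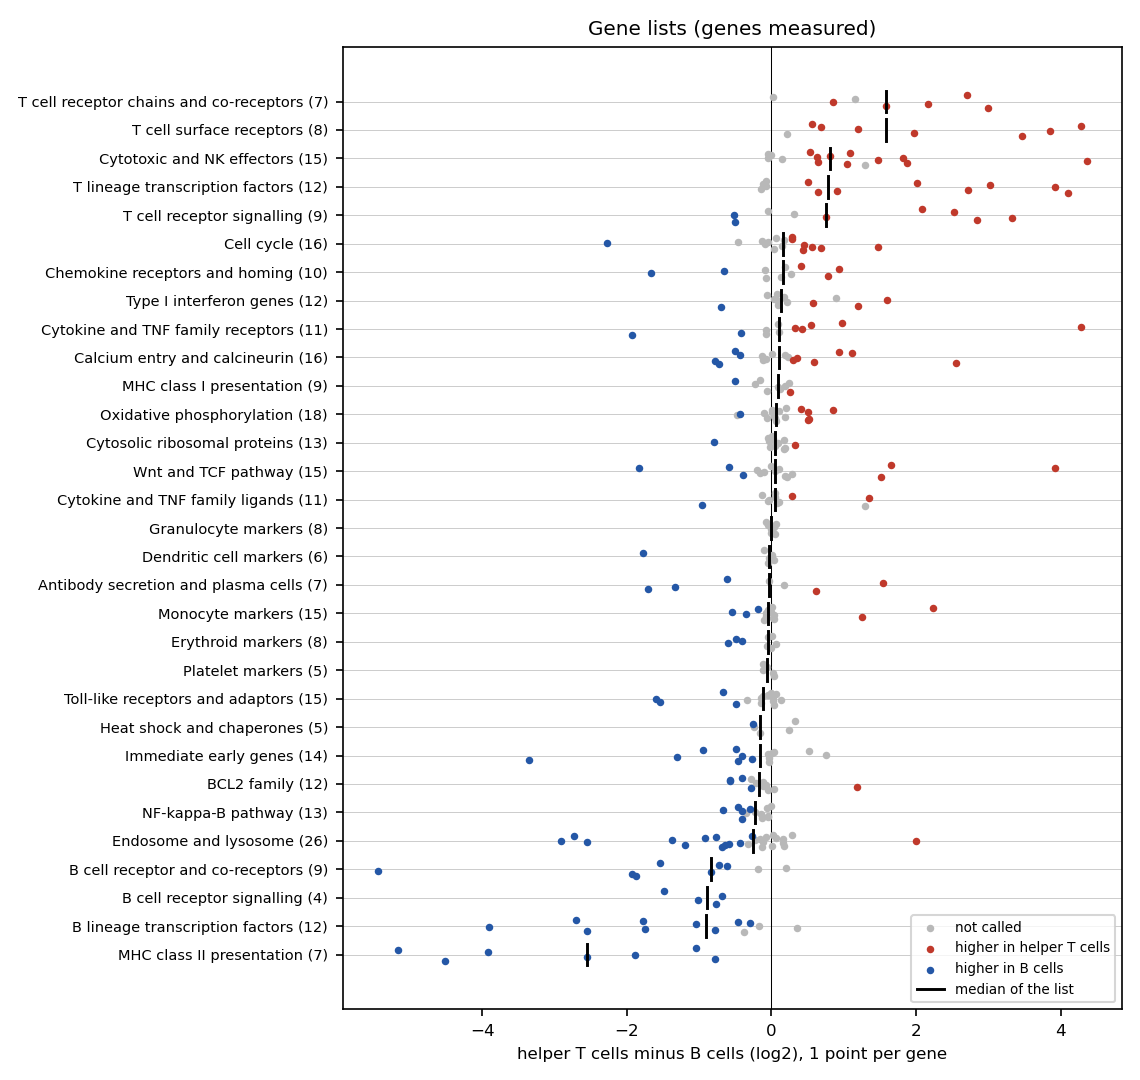
Each point is a gene of the list named at the left, with the number measured in brackets, at its difference helper T cells minus B cells (log2); red and blue are called genes, grey those not called, and the black tick is the median of the list. T cell receptor genes (median 1.59) stand at the top and MHC class II genes (median -2.55) at the bottom.

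Of 11 cytokine receptors measured, 5 were higher in helper T cells and 2 in B cells, with a median of 0.11, where 15.2% and 13.1% of all genes were called in these directions. After IL7R the largest difference in helper T cells was that of TNFRSF1A, the main receptor for TNF, at 0.98 ± 0.11, followed by TGFBR2 (0.55 ± 0.15, with 1 of its 2 probes passing), IL2RG, the common gamma chain (0.43 ± 0.08), and IL6R (0.32 ± 0.05). The call of TGFBR2 was lost without rank 1 (also without rank 2, or without rank 3) and that of IL2RG without rank 1 (or rank 2). IFNGR1, a chain of the interferon-gamma receptor, was higher in B cells, at -0.42 ± 0.05, although its level moved more between animals than between types. It stood at 10.94, 11.30, 9.85 and 10.05 in B cells and at 10.45, 10.84, 9.50 and 9.65 in helper T cells. Of 11 ligands, 2 were higher in helper T cells and 1 in B cells, together 27.3% of the list, which is near the 28.3% of all genes. LTB, which builds lymphoid tissue, stood at 13.40, 13.26, 13.92 and 14.02 in helper T cells and at 12.18, 11.39, 12.38 and 13.24 in B cells, a difference of 1.35 ± 0.17. CD70, the ligand of CD27, was higher in B cells at -0.96 ± 0.14. The call of TNFSF10 (0.29 ± 0.06), the death ligand TRAIL, was lost without rank 1 (also without rank 2, or without rank 3).

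Of 10 chemokine receptors and homing genes, 3 were higher in helper T cells and 2 in B cells, where 15.2% and 13.1% of all genes were called. CXCR5, which guides cells to B cell follicles, stood at 9.64, 9.85, 9.23 and 9.58 in B cells and at 7.93, 7.85, 8.05 and 7.82 in helper T cells, a difference of -1.66 ± 0.13. GPR183, the oxysterol receptor that positions B cells, was bright in both types and differed by -0.66 ± 0.12, with 1 of its 2 probes passing. The integrin chain ITGA6 differed by 0.94 ± 0.15, the fractalkine receptor CX3CR1 by 0.78 ± 0.15 and SELPLG, a selectin ligand, by 0.41 ± 0.06. The call of CX3CR1 was lost without the animal of rank 1. CXCR4 was not called, at 0.27 ± 0.22, with 10.89, 11.96, 10.12 and 10.24 in helper T cells and 10.45, 10.98, 9.99 and 10.73 in B cells. ITGB7 moved with the animal rather than the type, at 12.65, 10.99, 12.68 and 12.74 in helper T cells and 12.32, 11.13, 12.60 and 12.26 in B cells (0.19 ± 0.11).

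In the Wnt and TCF list of 15 genes, 3 were higher in helper T cells and 3 in B cells, with a median of 0.05. The called genes were 40.0% of the list, against 28.3% of all genes. Beside LEF1, the feedback gene AXIN2 stood at 9.55, 9.84, 9.26 and 9.39 in helper T cells and at 8.05, 7.99, 7.99 and 7.98 in B cells (1.51 ± 0.10), and TRIB2, a pseudokinase, differed by 1.66 ± 0.24. TLE1, a co-repressor that binds TCF and LEF factors, stood at 9.80, 9.93, 9.45 and 9.29 in B cells and at 7.87, 7.85, 7.72 and 7.69 in helper T cells. Its difference was -1.83 ± 0.09 (adjusted p = 0.000139), and those of TLE3 and CSNK1D (1 of 2 probes passing) were -0.59 ± 0.13 and -0.39 ± 0.09, both lost without the animal of rank 1 (or of rank 2). CTNNB1, beta-catenin itself, was not called, at -0.16 ± 0.08. In the calcium list of 16 genes, 6 were higher in helper T cells and 4 in B cells. Together they were 62.5% of the list, against 28.3% of all genes. The paralogs of store-operated entry went opposite ways, STIM1 at 0.93 ± 0.09 and STIM2 at -0.50 ± 0.10, as did the receptors of inositol trisphosphate, ITPR3 at 0.30 ± 0.05 and ITPR1 at -0.78 ± 0.08. The calcium pumps ATP2B4 of the plasma membrane (2.56 ± 0.10) and ATP2A3 of the endoplasmic reticulum (-0.73 ± 0.06) also lay on opposite sides. The calls of STIM2 and of PPP3R1 (-0.44 ± 0.11), a calcineurin subunit, were lost without the animal of rank 5, that of PPP3R1 also without rank 1.

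Of 12 genes of the BCL2 family, 1 was higher in helper T cells and 4 in B cells, together 41.7% of the list against 28.3% of all genes. BCL2, which protects from apoptosis, stood at 11.02, 10.57, 11.30 and 10.79 in helper T cells and at 9.31, 9.0, 10.44 and 10.19 in B cells, a difference of 1.19 ± 0.20, and 2 of its 3 probes passed. Its protective relatives BCL2L2 and MCL1 went the other way, at -0.57 ± 0.07 and -0.41 ± 0.06. The death-promoting members BMF (-0.57 ± 0.14) and BBC3 (-0.28 ± 0.07) were also higher in B cells, but neither call held without the animal of rank 2 (or of rank 5), nor did that of BBC3 without rank 1. Of 15 genes of Toll-like receptor signalling, 4 (26.7%) were higher in B cells and 11 were not called. Over all genes 13.1% were called in that direction and 28.3% in either. TLR10, a receptor of B cells, stood at 8.72, 9.22, 10 and 10.02 in B cells and at 7.82, 7.95, 7.92 and 7.93 in helper T cells (-1.59 ± 0.22), and UNC93B1, which escorts endosomal receptors, differed by -0.67 ± 0.13. Of 13 genes of the NF-kappa-B pathway, 5 (38.5%) were higher in B cells, against 13.1% of all genes, and 8 were not called. The inhibitor family member NFKBID led at -0.67 ± 0.10. It was the only one of the 5 whose call held when any 1 animal was left out: NFKBIB (-0.41 ± 0.09) and RELB were lost without rank 2, and BCL10 (-0.40 ± 0.09) and REL without rank 1 (also without rank 2, or without rank 5). NFKBIA, the main inhibitor, was among the brightest genes of both types and not called, at -0.23 ± 0.13.

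Genes of antibody secretion were split. Of 7 measured, 3 were higher in B cells and 2 in helper T cells, together 71.4% of the list against 28.3% of all genes. JCHAIN, which joins secreted immunoglobulin, stood at 9.61, 8.81, 9.34 and 10 in B cells and at 7.79, 7.77, 7.70 and 7.71 in helper T cells (-1.70 ± 0.19), and MZB1, a chaperone of immunoglobulin assembly, differed by -1.34 ± 0.12. SEC11C, a signal peptidase subunit, differed by -0.61 ± 0.16, a call lost without rank 2 (also without rank 3, or without rank 5). PRDM1, the repressor BLIMP1 that drives plasma cell and effector T cell fates, went the other way. It stood at 9.63, 10.36, 10.06 and 9.54 in helper T cells and at 8.41, 8.36, 8.53 and 8.12 in B cells, a difference of 1.54 ± 0.13 (adjusted p = 0.000722), with 1 of its 2 probes passing, and its mean in cytotoxic T cells was 10.21.

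Immediate early genes, which cells switch on quickly when stimulated or handled, were in part higher in B cells. Of 14 measured, 7 were higher in B cells and 7 were not called, with a median of -0.16. Over all genes 13.1% were called in that direction. EGR1 stood at 12.20, 11.10, 12.10 and 11.66 in B cells and at 8.55, 8.24, 8.37 and 8.48 in helper T cells, a difference of -3.35 ± 0.15 (adjusted p = 0.000109). FOSB stood at 11.02, 8.98, 9.57 and 9.35 in B cells and at 9.64, 7.88, 8.11 and 8.04 in helper T cells. The animal of rank 1 was high in both, so the groups overlapped, but the difference was -1.31 ± 0.07. NR4A2 differed by -0.94 ± 0.21, PPP1R15A by -0.49 ± 0.09, DUSP1 by -0.46 ± 0.08, IER5 by -0.40 ± 0.09 and EGR3 by -0.27 ± 0.07. The calls of NR4A2, IER5 and EGR3 were lost without the animal of rank 1 and without at least 1 other. JUN was not called and lay toward helper T cells, at 0.76 ± 0.23 (adjusted p = 0.063), with 13.49, 11.64, 12.39 and 12.91 against 12.28, 10.73, 12.58 and 11.79. The time from bleeding to lysis is not given in the sources used here.

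Levels in the other sorted types of the same 4 animals placed these genes, as a description without a test. Of the 132 genes higher in helper T cells by at least 1 log2, the mean of cytotoxic T cells was within 1 log2 of the helper mean or above it for 124, and that of monocytes for 40. Of the 148 genes higher in B cells by at least 1 log2, the monocyte mean was within 1 log2 of the B cell mean or above it for 83, and the cytotoxic mean for 19. A gene whose difference is near 1 log2 can meet this cut and still lie close to the lower type. The cytotoxic mean was below the helper mean or less than 1 log2 above it for at least 139 of the 148, and the monocyte mean for at least 69. These counts are therefore no measure of genes shared with the higher type alone. CD74, CD86, HHEX, EGR1 and the probes named HLA-DRB4 and HLA-DQB1 belong to those bright in monocytes too. CD79B, LDB2, RAB30 and TOX2 stood in monocytes at 8.07, 8.18, 7.97 and 8.28.

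**Figure D5:**
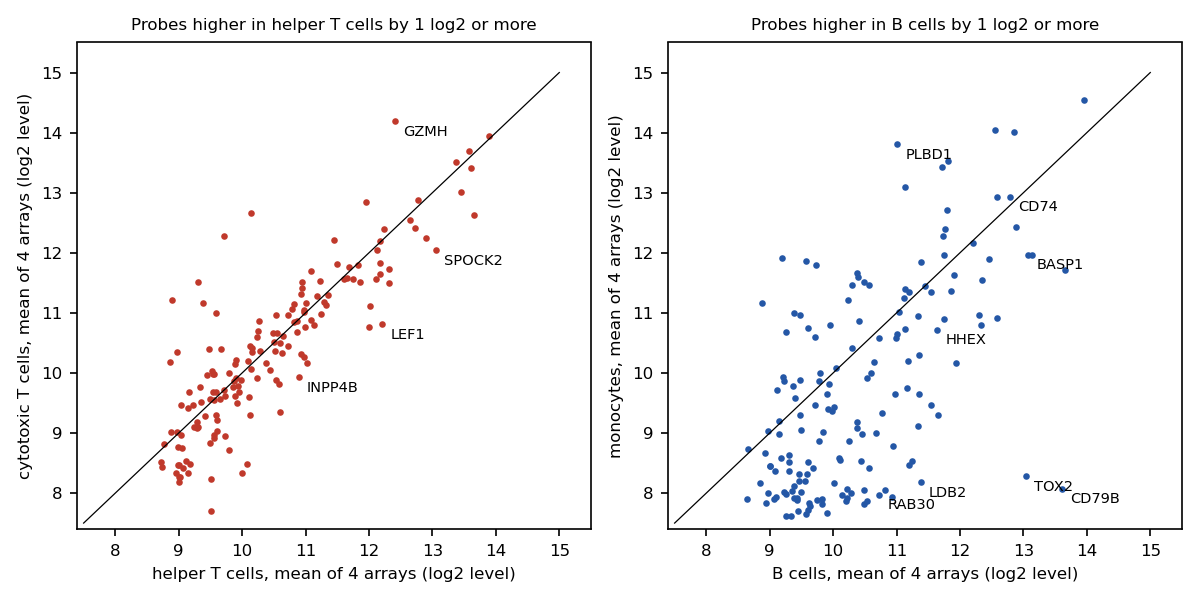
Named probes that differed by at least 1 log2 are plotted as log2 levels, at left those higher in helper T cells against their mean in cytotoxic T cells, at right those higher in B cells against their mean in monocytes; the line marks equal levels. At left most points lie near the line, and at right they divide between points near the line, such as CD74, and points at the low end, such as CD79B at 8.07 in monocytes.

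Differences between the cell types were repeated from animal to animal, while levels also held deviations shared by both types of 1 animal. Helper T cells were higher by at least 1 log2 at 177 to 214 probes in each animal and B cells at 187 to 225. The differences of an animal correlated at 0.878 to 0.897 over probes with the mean of the other 3, as a description across probes that share the same arrays' normalization. The rank 4 pair gave 1425 and 1506 such probes and a correlation of 0.177, and 1163 of the 1865 called probes had the same sign in it. After the cell type means were removed, the helper and B cell arrays of 1 animal correlated at 0.609 to 0.738. The animals of ranks 1 and 2 deviated in the same direction as each other, and so did those of ranks 3 and 5, with correlations of 0.281 to 0.412 and 0.407 to 0.410 within a type, against -0.774 to -0.571 for the other rank pairs. What separates these pairs of animals was not tested.

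Many called genes had types that overlapped. Of 1483 called genes, 593 (40.0%) had at least 1 array of the lower type above an array of the higher type, and in 590 of these the sign was the same in 4 of 4 animals. Examples were chosen after their values were seen. MFNG, a modifier of Notch receptors, stood at 11.03, 10, 11.94 and 12.02 in helper T cells and at 8.88, 8.61, 10.60 and 10.60 in B cells, a paired difference of 1.58 ± 0.14. ZC3HAV1, an antiviral RNA-binding protein, stood at 11.38, 11.85, 12.64 and 12.65 against 10.16, 10.43, 11.61 and 11.31 (1.25 ± 0.08). PECAM1, an adhesion molecule, stood at 10.27, 10.77, 11.31 and 11.10 against 8.58, 8.55, 8.88 and 10.30 (1.79 ± 0.26), and here the overlap came from 1 B cell array, that of rank 5. Groups that did not overlap were seen for 536 genes (10.2% of 5236) with helper T cells above and for 511 (9.76%) with B cells above.

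Globin transcripts, which come from red blood cells, differed between animals in both types. HBA1 stood at 12.46, 12.39, 10.28 and 10.17 in the helper arrays and at 12.98, 12.82, 11.02 and 10.88 in the B cell arrays, so the animals of ranks 1 and 2 were about 2 log2 above those of ranks 3 and 5 in both types. Within each animal B cells were slightly higher, by -0.60 ± 0.07 as helper minus B. HBB and HBA2 differed by -0.49 ± 0.11 and -0.40 ± 0.10, and their calls were lost without the animal of rank 3 and without at least 1 other. The globin genes are close copies, and their probes may not separate them. The other 5 of 8 erythroid genes were not called, so 37.5% of that list was called against 28.3% of all genes.

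The genes with the widest spread of the difference over animals, after CD8A, included several with 1 array that stood apart. JAM3, a junctional adhesion molecule, stood at 8.38, 8.40, 9.79 and 8.41 in helper T cells and at 10.42, 10.93, 8.37 and 8.95 in B cells, so the rank 3 animal was reversed (-0.92 ± 0.63, adjusted p = 0.366). F5, coagulation factor V, stood at 8.26, 8.18, 10.62 and 8.39 in helper T cells and at 7.78, 7.63, 7.64 and 7.65 in B cells (1.19 ± 0.43, adjusted p = 0.0983). CYP27A1, a sterol hydroxylase, stood at 8.55, 8.83, 10.80 and 8.71 in B cells and at 7.96, 7.94, 7.91 and 7.94 in helper T cells (-1.28 ± 0.38, adjusted p = 0.0581). In all 3 the array that stood apart was from the rank 3 animal. APOD, a lipocalin, was called at 1.83 ± 0.45 (adjusted p = 0.0318), with 9.77, 8.21, 8.99 and 11.09 in helper T cells and 7.55 to 7.86 in B cells. Its call was lost without the animal of rank 1 (or of rank 3). CCL5, a chemokine of cytotoxic cells, stood at 9.98, 10.37, 8.86 and 10.60 against 8.77, 8.61, 8.98 and 8.31 (1.29 ± 0.37, adjusted p = 0.0521).

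Over 15 monocyte genes the mean level was 8.22 to 8.34 in helper arrays, 8.08 to 8.19 in B cell arrays and 11.76 to 12.27 in monocytes. The defining CD14 stood at 8.01 to 8.29 in helper T cells and 8.07 to 8.16 in B cells against a monocyte mean of 13.11. The list held 5 called genes, which is 33.3% against 28.3% of all genes. Among them 2 were higher in helper T cells, and neither was dim there. The protease inhibitor SERPINA1 stood at 10.25, 9.92, 10.42 and 10.37 in helper T cells and at 8.01, 8.03, 8.03 and 7.99 in B cells (2.23 ± 0.10). The factor CEBPB stood at 11.04, 11.66, 11.22 and 10.79 in helper T cells and at 9.77, 10.02, 10.02 and 9.86 in B cells (1.26 ± 0.11). Their means in cytotoxic T cells were 10.60 and 11.28. It held 3 higher in B cells, CST3 at -0.55 ± 0.10, CSF1R at -0.35 ± 0.08 and S100A9 at -0.18 ± 0.05. These 3 calls were lost without the animal of rank 2, that of CSF1R also without rank 1, and that of S100A9 without any 1 animal. Of 8 granulocyte genes and 5 platelet genes none was called by limma, 0 of either list passed at an unadjusted p under 0.05, and their mean levels lay between 7.80 and 8.06 in all 8 arrays. Of 6 dendritic cell genes, TCF4, which also stands in the list of B lineage factors, was called, 16.7% of the list against 28.3% of all genes.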

How the data were processed

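Per the labels' protocols, RNA was purified with a Qiagen kit that included DNase and was labelled with biotin for Illumina arrays, and the submitters' processing notes name lumi. The deposited values were taken as log2 levels. They run from 7.50 to 14.77, every array shows 1 common distribution, and the deposited table named as not normalized is identical to the other, so no raw intensities were analysed. Neither source gives the log base. If the scale is lumi's variance-stabilised one, log2 differences of dim probes are understated. The probes are of human design, and symbols come from the platform annotation. Of 5236 symbols, 4957 occur in RefSeq's macaque gene table.

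Each probe was fitted by lmFit and eBayes (limma 3.58.1, R 4.3.3) on cell type with the animal as a block, two-sided, with Benjamini-Hochberg adjustment over 7303 probes and a threshold of 0.05. The 8 arrays leave 3 residual degrees of freedom and the prior adds 2.96, so the number of arrays limits the precision. Each SE given is from this fit and is drawn toward the prior, so it does not show the spread among animals. The array titles tie the arrays of a rank to 1 animal, and the deviations of paired arrays correlated at 0.609 to 0.738. The fit was tested on simulated data.

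Genes named are the first 20 in each direction, genes of 31 lists, the 8 with the widest spread and the brightest called in each direction, plus others named as examples. The first 20 were taken by size among called genes with the same sign in all animals. The members and lists were chosen with earlier results of these data known. Alternatives were no pairing, leaving out each animal, adding the rank 4 pair, fits of 16 and 18 arrays, a filter on dim probes, cyclic loess, an intensity trend with a robust prior, the other deposited table and the mean of all probes of a gene. Fits of ranks 1 and 2 and of ranks 3 and 5 were added after seeing the data. Detection p-values and coordinates were not used here.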

Additional observations from a re-analysis of the deposited data

Results flagged for a closer look

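In 98 groups of 4 arrays checked among the genes named by size or spread, 6 had 1 array far from the other 3 by Dixon's criterion. For groups not picked by spread, chance alone gives about 1 in 20. JAM3, F5 and CYP27A1 were picked for their wide spread, which favours such arrays, so that rate does not apply to this count. LEF1 in B cells was at 8.47 in the rank 5 animal and at 8.19 to 8.23 in the others. CD6 in helper T cells was at 12.54 in the rank 5 animal and at 12.21 to 12.26 in the others, a small gap. JAM3 and F5 in helper T cells were at 9.79 and 10.62 in the rank 3 animal, against 8.38 to 8.41 and 8.18 to 8.39. F5 in B cells was at 7.78 in the rank 1 animal and at 7.63 to 7.65 in the others, near the low end of the array. CYP27A1 in B cells was at 10.80 in the rank 3 animal and at 8.55 to 8.83 in the others, and its mean in monocytes was also 10.80.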

How the results depend on the processing

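Counts of called probes kept within 1.5 times of the 1865 under the other deposited table (1865), cyclic loess (1858), the trend with a robust prior (1976), the dim filter (1431 of 3775 tested), the fits of 16 and 18 arrays (1744 and 1839) and the animals of ranks 1 and 2 alone (1542). Leaving out 1 animal gave 1237 to 1495 calls, 649 to 780 higher in helper T cells and 588 to 715 higher in B cells, the lowest without rank 1. Without the replicate block, 953 probes passed (496 higher in helper T cells, 457 in B cells), 948 of them shared with the paired fit. The animals of ranks 3 and 5 alone gave 743 (374 and 369). This split was made after seeing the data, and each fit holds 2 animals. The counts of 743 and 1542 therefore cannot show that the pairs of animals differ. The rank 4 pair gave 267 (195 and 72), and the share higher in helper T cells then was 73.0% against 53.4%. That shift does not rank the directions, because the B cell array of this pair was low in CD3D and CD79B alike. With that pair these differences turned sign: OAZ1 (0.66), BCL10 (0.25), GPR183 (0.30), HBA1 (0.15), HBB (0.60), IER5 (0.08), IFNGR1 (0.13), NDUFA2 (0.32), PPP1R15A (0.41), PRKCB (0.10), RAB5C (0.14), CD8B (-0.11), CD81 (0.39), KLF2 (0.95), RUNX3 (0.72) and NFKBIA (0.06). In ranks 3 and 5 alone JAM3 (0.44), CD8B (-0.04), CXCR4 (-0.18) and RPL30 (-0.08) did, in ranks 1 and 2 alone CD81 (0.03), KLF2 (0.09) and NFKBIA (0.06), and without rank 2 CD8B (its range on leaving out 1 animal was -0.02 to 0.05). Of the reversed, CD8B, CD81, KLF2, RUNX3, CXCR4, RPL30, NFKBIA and JAM3 were not called over the 4 animals. The mean of all probes of a gene turned no named difference. The cause of these changes was not tested.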

Other observations

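Of 13 cytosolic ribosomal protein genes, 1 was called in each direction, 15.4% of the list against 28.3% of all genes, RPL36A at -0.80 ± 0.08 in B cells and RPL24 at 0.32 ± 0.08 in helper T cells, and the call of RPL24 was lost without any 1 animal. RPL30 was bright everywhere, at 14.57, 14.68, 14.38 and 14.66 in helper T cells and 14.38, 14.36, 14.63 and 14.57 in B cells. Of 18 genes of oxidative phosphorylation, 5 were higher in helper T cells and 1 in B cells, where 15.2% and 13.1% of all genes were called in these directions. NDUFV2, a complex I subunit, stood at 12.25, 12.33, 12.08 and 11.48 in helper T cells and at 11.26, 11.44, 11.30 and 10.76 in B cells (0.85 ± 0.06, adjusted p = 0.000521), while NDUFA2 of the same complex differed by -0.43 ± 0.05. Of 9 genes of MHC class I presentation, B2M was higher in helper T cells at 0.26 ± 0.05 and the peptide transporter chain TAP2 in B cells at -0.50 ± 0.10, and both calls were lost without the animal of rank 1 (or of rank 2). Together they were 22.2% of the list, against 28.3% of all genes. HLA-E stood at 13.92 to 14.47 in helper T cells and 13.76 to 14.36 in B cells and was not called (0.12 ± 0.06).

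Of 16 cell cycle genes measured, 7 were higher in helper T cells and 1 in B cells. Of the D-type cyclins, CCND3 differed by 1.47 ± 0.14 and CCND2 by 0.69 ± 0.05, while CCND1, at 7.71, 7.95, 7.86 and 7.85 in helper T cells and 7.83, 7.91, 7.70 and 7.76 in B cells, was not called. CCND3 stood at 10.84, 10.64, 11.54 and 11.34 in helper T cells and at 9.03, 8.92, 10.53 and 9.99 in B cells. CDKN1A, the cell cycle inhibitor p21, went the other way, with 11.05, 11.49, 11.51 and 10.49 in B cells and 9.16, 9.01, 8.62 and 8.61 in helper T cells (-2.28 ± 0.18, adjusted p = 0.00062), and its mean in monocytes was 13.10. The calls of CDC20 (0.56 ± 0.12), MCM7 (0.29 ± 0.06) and TYMS (0.28 ± 0.06) were lost without the animal of rank 1, and those of CDC20 and TYMS also without rank 3. Of 12 type I interferon genes, 3 were higher in helper T cells and 1 in B cells, together 33.3% of the list against 28.3% of all genes. IFITM1, a membrane protein that restricts viral entry, stood at 11.38, 10.97, 12.05 and 12.04 in helper T cells and at 9.50, 9.35, 10.34 and 10.84 in B cells (1.60 ± 0.11), and IFI44 differed by 1.20 ± 0.14. HERC5, the ligase of the ubiquitin-like ISG15, differed by -0.70 ± 0.06. The call of IFI6 (0.57 ± 0.14) was lost without rank 1 (also without rank 2, or without rank 5). Of 5 heat shock genes, HSP90B1, an endoplasmic reticulum chaperone, was higher in B cells at -0.26 ± 0.06, a call lost without rank 2 (also without rank 3, or without rank 5).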
